A study of Mus musculus with 18 samples.

Results

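Short chromatin loops, those whose anchor midpoints lie less than 50 kb apart, made up 1654 of the 20535 autosomal loops in this Micro-C study of mouse erythroblasts, a share of 8.05%. A loop links 2 positions of a chromosome, its anchors, in closer contact than the sequence around them. The members were chosen by their span alone, so their span is a description and not a finding. They were compared with the 18881 autosomal loops of 50 kb and over, called longer loops here, and with the 3825 of these that span 50 to under 100 kb.

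The loops came from Micro-C, which cuts chromatin with micrococcal nuclease, ligates neighbouring ends in the nucleus and sequences the joined fragments. Per the labels, all 18 samples were G1E-ER4 cells, a mouse erythroblast line, of a subline in which LDB1 carries an auxin-inducible degron (LDB1-AID). Untreated cells gave 9 samples and cells kept in auxin for 4 h gave the other 9, and the degron tag is present in both groups. Whether the subline is 1 clone is not given in the sources used here. The deposited lists hold 1 set of loops and 1 set of domains for the whole series, with no value per sample or per treatment, so the effect of auxin on short loops was not analysed here. The samples that entered each list and their depth are not given in the sources used here, and a contact below the authors' detection limit is missing from the list.

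Loops form in several ways. Cohesin, a ring-shaped complex, reels in chromatin until it meets the factor CTCF bound to DNA, which often joins the ends of a domain. Promoters and enhancers can also be held together by factors that bind them, and LDB1, which has no DNA-binding domain of its own, bridges such sites through GATA1, TAL1 and LMO2 in red blood cell precursors. The nucleosome-sized fragments of Micro-C resolve contacts at close range that coarser methods blur. Domains here are topologically associating domains, segments that make more contacts within themselves than across their ends. Coordinates are those of the lists, in the mouse build mm9 that the submitters' processing notes name, counted from 1. No genome or gene annotation of that build was used here, so regions are given by position and no gene or sequence is named for them.

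With 1 list and no replicates, no test over samples exists. Shares are given with 95% Wilson intervals and differences with 95% Newcombe intervals, which cover the counting of loops, anchors or regions only and treat them as independent. The spread over the 19 autosomes describes how chromosomes differ within this 1 list. It holds no measure of variation between samples.

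The short loops spanned 18 to 48 kb, with a median of 36 kb and quartiles of 26 and 45 kb. Each anchor is 10 kb wide, so the anchors of the shortest loops were separated by a gap of 8 kb. Anchor positions fell on coordinate grids, which differ by what spans they hold. The 2 kb grid held 1262 short loops (76.3%), the 5 kb grid held 341 (20.6%), and 51 (3.08%) had both anchors at multiples of 10 kb. Such multiples are also positions of the 2 kb grid, so these 51 loops may belong to it. All 341 loops on the 5 kb grid had a span of exactly 45 kb. There were 133 loops at 18 kb, the smallest span, whereas the 15 even spans from 20 to 48 kb held 69 to 92 loops each over all grids. The span of 18 kb on the 2 kb grid and of 45 kb on the 5 kb grid was the smallest found there. Each was also the fullest span of its grid up to 100 kb. Short loops are therefore mostly loops of the finest grid. The main comparisons of shares between the classes are also given for the 2 kb grid alone. The 2997 longer loops on the 2 kb grid spanned 50 to under 100 kb (1401) or 100 to under 200 kb (1596). Comparisons on that grid therefore also narrow the span of the longer class. At the limit, 83 loops of 48 kb lay just inside and 286 loops of 50 kb just outside, of which 225 lay on the 5 kb grid.

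**Figure D1:**
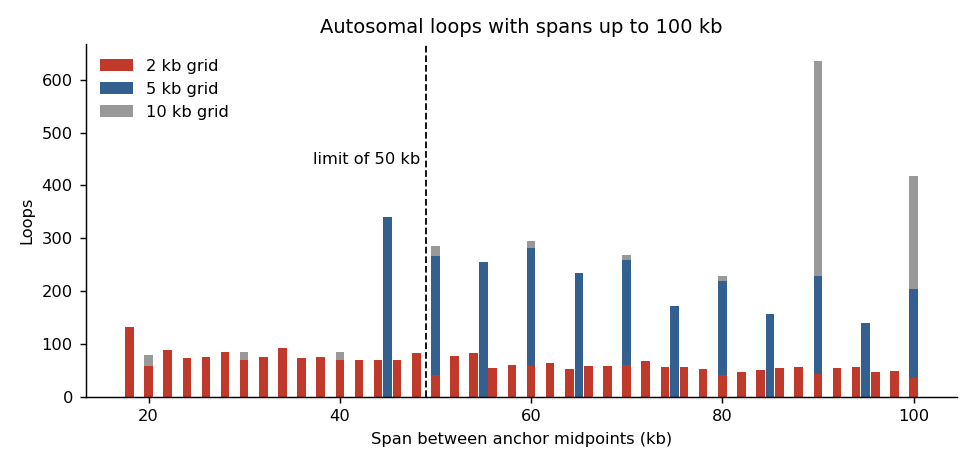
Autosomal loops (vertical axis, count) by span in kb (horizontal axis), stacked by the coordinate grid of their anchors. Left of the dashed limit of 50 kb, counts on the 2 kb grid run from 58 to 92 apart from the 133 loops at 18 kb. The only loops of the 5 kb grid there are the 341 at 45 kb.

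Nearly all short loops lay inside a domain. Both anchor midpoints fell inside the same domain for 1607 of 1654 short loops, or 97.2% (95% interval 96.2 to 97.9%), against 16135 of 18881 longer loops, or 85.5% (95% interval for the difference 10.7 to 12.6 percentage points). The share was higher for short loops on 19 of 19 autosomes, with a mean difference of 11.7 points ± 3.49 (SD over 19 autosomes). A short window fits into a domain more easily than a long one, so this difference is partly fixed by the choice of members. As a background, every position of a window of the same span on the same grid and chromosome was examined. Of such windows, 95.8% lay inside 1 domain, 1.41 points below the loops. For longer loops the corresponding value was 75.1%, which is 10.4 points below. Only 4.25% of windows of the short spans lay outside, so the gap in points had little room there. Short loops lay outside 0.669 times as often as their windows, and longer loops 0.584 times as often. For loops of 50 to under 100 kb this ratio was 0.451.

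In points, the gap between loops and windows was small throughout the short class, where few windows lay outside a domain. It had no steady change by span there, and it widened above 50 kb. It was 1.61 points at 18 to under 28 kb, 1.70 points at 28 to under 38 kb and 1.14 points at 38 to under 50 kb. It was then 3.07 points at 50 to under 75 kb, 4.79 points at 75 to under 100 kb and 8.84 points at 100 to under 200 kb. In the shortest of these classes 442 of 450 loops lay inside a domain, where a share of 96.6% of windows did so. Against the loops of 50 to under 100 kb, of which 96.8% lay inside a domain, short loops differed by 0.374 points (95% interval -0.677 to 1.30). On the 2 kb grid, where all longer loops span under 200 kb, the difference from longer loops was 0.659 points (95% interval -0.597 to 1.75). Neither interval excludes a difference of 0.

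Domains in the list are nested, and the smallest ones give a sharper view. Short loops lay inside a domain that holds no other domain in 90.3% of cases, against 85.2% of windows, a gap of 5.17 points. At 18 to under 28 kb this gap was 2.47 points, and at 38 to under 50 kb it was 6.33 points. The gap reached 16.2 points at 75 to under 100 kb and 24.3 points at 100 to under 200 kb, and it fell to 0.994 points above 500 kb, where such domains are rarely large enough. The smallest domain around a short loop had a median size of 290 kb, compared with 390 kb for longer loops, and 754 short loops (45.6%) lay inside 3 or more nested domains. Loops of 50 to under 100 kb were close to these values, with a median of 295 kb and 43.8% inside 3 or more domains. Within the 2 kb grid the median was 290 kb for short and 297 kb for longer loops, of which 46.0% and 41.5% lay inside 3 or more. The smallest domain in the list is 100 kb, so no short loop can join the start of a domain to its end.

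**Figure D2:**
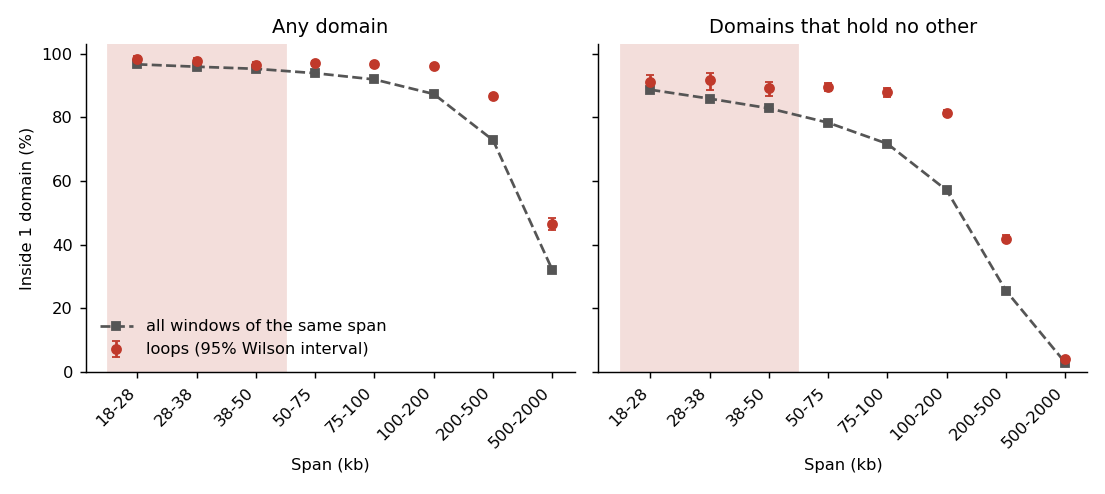
Percent of loops that 1 domain encloses at both anchor midpoints (circles, 95% Wilson intervals) and percent of all windows of the same span (squares), by span in kb, for any domain (left) and for domains that hold no other (right). In the shaded classes under 50 kb the loops lie 1.14 to 1.70 points above the windows for any domain, and from 50 kb the distance grows with span, up to 100 to 200 kb in the right panel.

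A small set of short loops spanned a domain end. There were 214 such loops (12.9%, 95% interval 11.4 to 14.6%), against 47.6% of longer loops and 14.8% of loops of 50 to under 100 kb. Of these 214 loops, 179 were still enclosed by a larger domain, and 104 spanned 2 or more distinct ends. The remaining 35 crossed an end with no domain around them, and 12 further short loops lay in no domain without crossing an end. The share that crossed an end was 9.77% among the 133 loops of 18 kb and 14.8% at 40 to under 50 kb. On the 2 kb grid, 12.4% of short and 19.1% of longer loops crossed an end. A longer span holds a domain end more easily, so these differences are partly fixed by the choice of members. No share of windows of the same span is given for crossing an end.

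Short loop anchors lay near domain ends slightly more often than arbitrary positions did. Of 3244 distinct anchors of short loops, 632 lay within 20 kb of a domain end, or 19.5% (95% interval 18.2 to 20.9%). Of all grid positions, 17.7% lay that close, which puts the anchors at 1.10 times this level. Anchors of longer loops were within 20 kb in 27.3% of cases, 1.50 times the level of positions. The difference between the classes was -7.79 points (95% interval -9.21 to -6.31, short minus longer), and the share was lower for short loops on 19 of 19 autosomes. Anchors of loops of 50 to under 100 kb were that close in 18.5% of cases, 1.04 times the level of positions. A level near that of positions was thus not particular to short loops. Against that class the difference turned to 1.03 points (95% interval -0.579 to 2.67). On the 2 kb grid the difference from longer loops was -1.96 points (95% interval -3.84 to -0.0289).

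Left and right anchors, those at the lower and the higher coordinate, differed in how they lay around domain ends. Left anchors of longer loops lay mostly on the higher side of the nearest end. Within 60 kb, 82.1% of them were on that side (95% interval 81.3 to 82.8%), and for loops of 50 to under 100 kb the share was 77.9%. For short loops it was 52.4% (95% interval 49.1 to 55.7%), or 456 on the higher and 414 on the lower side, an interval that includes an even split. The right anchors of short loops kept a side: 41.7% were on the higher side (95% interval 38.4 to 45.1%), compared with 30.7% for longer loops and 24.0% for loops of 50 to under 100 kb. On the 2 kb grid, left anchors were on the higher side in 50.4% of short and 85.4% of longer loops. Right anchors on that grid were on the higher side in 41.1% of short and 22.3% of longer loops, a wider gap than over all grids. A long loop with its left anchor just below an end must span that end, whereas a short loop can stop before it. The same holds for right anchors just above an end. The sides are therefore partly fixed by the choice of members, and no share of windows of the same span is given for them.

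The profile by distance gave the same picture, with the same limit from span. In steps of 10 kb, left anchors of longer loops peaked at 30 kb above a domain end with 8.84% of loops, and their share at 20 kb below was 1.29%. Left anchors of short loops had 4.84% at 30 kb above, 3.33% at 20 kb below and 5.44% at 40 kb below, with no single peak. Right anchors of short loops were most frequent at the end itself, with 123 loops (7.44%), and then at 20 kb below with 101 loops (6.11%). At 20 kb above an end their count was 35 loops (2.12%). Right anchors of longer loops reached 13.3% at the end. Within 20 kb of an end, 16.5% of the left and 22.3% of the right anchors of short loops were found, against 17.6% of all positions. For loops of 50 to under 100 kb the shares were 12.7% and 24.0%, so the left anchors of that class lay nearer to an end less often than those of short loops (difference 3.76 points, 95% interval 1.72 to 5.91, short minus longer, with short loops higher on 16 of 19 autosomes). Within the 2 kb grid, left anchors were that close in 16.6% of short and 14.2% of longer loops, and right anchors in 22.2% and 28.6%.

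**Figure D3:**
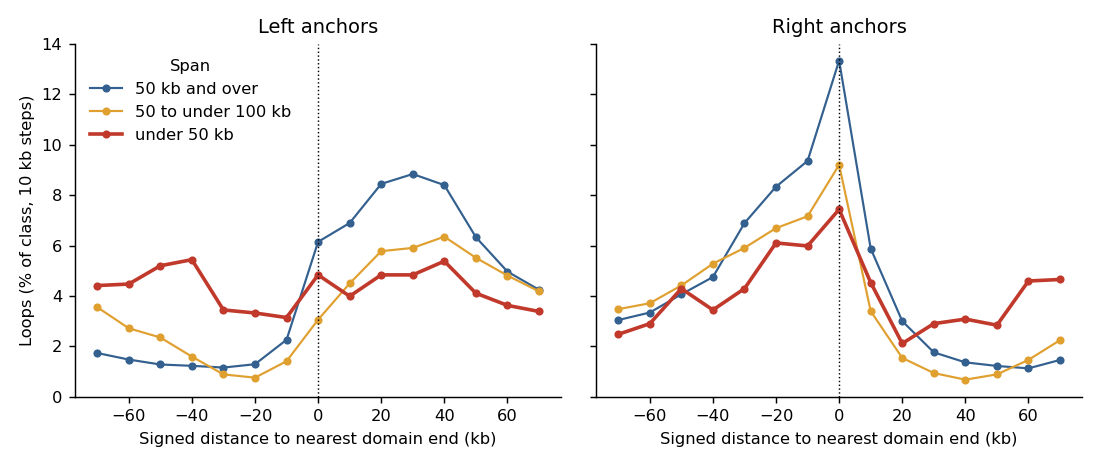
Percent of loops of each span class (vertical axis) by the signed distance in kb from the left anchor (left panel) or right anchor (right panel) to the nearest domain end, in steps of 10 kb, with positive values at higher coordinates. The line for short loops stays between 3.14 and 5.44% for left anchors, without the rise to 8.84% at 30 kb seen for loops of 50 kb and over, and it peaks at 7.44% at 0 kb for right anchors.

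Within their smallest enclosing domain, short loops were spread over the whole length. The left anchor was placed on a scale from the domain's start to the last position at which the loop still fits, so that even placement gives 20% in each of 5 equal parts. From the domain's start to its end, the parts held 20.04, 20.3, 18.3, 17.2 and 24.1% of the 1607 short loops. The part nearest the domain's end was also the fullest among longer loops, at 23.5%. The part nearest the start held 14.8% of longer loops on the 2 kb grid and 19.8% of short loops on that grid.

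Most short loops lay under a longer loop. Of the 1654, 1501 (90.7%, 95% interval 89.3 to 92.1%) lay within the span of a loop of at least 50 kb that was at least 10 kb longer. Of all windows of the same span and grid, 61.9% did so. The median short loop had 4 longer loops over it, and the highest number was 23. For loops of 50 to under 100 kb the share was 91.6%, against 58.6% of windows. For all longer loops it was 75.1%, but on the 2 kb grid the shares were 90.2% of short and 88.6% of longer loops (difference 1.55 points, 95% interval -0.522 to 3.48). The 153 short loops with no longer loop over them were a minority, and over autosomes the share under a longer loop was 90.04% ± 4.53 (SD over 19 autosomes), from 81.0 to 100%.

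Shared anchors join single loops into networks of several contacts. Of the short loops, 1442 had an anchor that overlapped some other loop's anchor by 1 bp or more, or 87.2% (95% interval 85.5 to 88.7%), against 91.7% of longer loops. The difference was -4.49 points (95% interval -6.23 to -2.91), and the share was lower for short loops on 16 of 19 autosomes, with a mean difference of -5.27 points ± 5.69 (SD over 19 autosomes). On the 2 kb grid the gap was wider, at 86.5% against 94.4%, with short loops lower on 19 of 19 autosomes. Within that grid the share rose with span, from 76.7% at 18 kb through 85.3, 87.3 and 90.6% in the classes from 20, 30 and 40 kb to 92.6% at 50 to under 100 kb and 96.0% at 100 to under 200 kb. The 95% intervals of the 18 kb class (68.8 to 83.1%) and the 40 kb class (87.2 to 93.2%) did not overlap. Short loops had a mean of 3.19 partner loops and longer loops 3.88, and 25.9% of short against 36.3% of longer loops had 5 or more. Among loops of the 2 kb grid these shares were 26.6% and 41.2%.

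The partners of short loops were mostly longer loops. A longer loop shared an anchor with 1393 short loops (84.2%), and another short loop did so with 533 (32.2%, 95% interval 30.02 to 34.5%). Among longer loops, 19.1% shared an anchor with a short loop, and among loops of 50 to under 100 kb 23.7% did so. On the 2 kb grid the shares were 31.1% of short and 26.9% of longer loops (difference 4.17 points, 95% interval 1.198 to 7.21), with short loops higher on 13 of 19 autosomes. A longer partner was found on that grid for 83.2% of short and 93.3% of longer loops. Some of these partners covered the same contact. Overlap with another short loop at both anchors was found for 226 short loops (13.7%) and 38 longer loops (0.201%). On the 2 kb grid it was found for 164 short loops (13.0%) and 19 longer loops (0.634%). The shares with a short partner therefore count such repeats unequally in the classes. At the level of pairs, 316 pairs of short loops shared an anchor, and 119 of them (37.7%) overlapped at both.

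Partners were also sorted by their arrangement. Loops that share an anchor can begin or end together, so that one covers the other, or they can lie in a row, with the end of one at the start of the next. A partner with the same start or end and a span different by at least 10 kb was found for 76.4% of short and 87.1% of longer loops (difference -10.7 points, 95% interval -12.9 to -8.70), lower for short loops on 19 of 19 autosomes. Restricted to the 2 kb grid, the shares were 74.7% and 90.0%, a difference of -15.2 points. The smallest span in the list is 18 kb, so few or no loops can be 10 kb shorter than a short loop. These differences are therefore partly fixed by the choice of members, and no background is given for them. A partner in a row was found for 53.4% of short and 48.1% of longer loops, and for 52.9% of loops of 50 to under 100 kb. Among loops of that grid it was found for 55.2% of short and 55.0% of longer loops (difference 0.275 points, 95% interval -3.00 to 3.53). Among the 316 pairs of short loops, 106 lay in a row (33.5%, 95% interval 28.6 to 38.9%) and 91 shared only a start or only an end. Pairs of longer loops lay in a row in 24.0% of 34294 cases. Pairs of a short and a longer loop lay in a row in 33.6% of 4639 cases and shared a start or end in 65.6%.

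Anchor regions, made by merging overlapping anchors of all autosomal loops, show where short loops enter networks. Regions with a single loop numbered 10266, and that loop was short at 9.51% of them. At regions with 5 to 9 loops, 6.84% of the loops (95% interval 6.33 to 7.38%) were short, and at the 66 regions with 10 or more loops the share was 5.22% (95% interval 3.83 to 7.08%). Since busier regions hold more loops, the share of regions with any short loop rose, from 29.5% at 5 to 9 loops to 26 of 66 regions (39.4%) at 10 or more. When regions joined by loops were linked into networks, 1003 short loops (60.6%) belonged to networks of at least 10 regions, against 62.0% of longer loops, and the intervals of 58.3 to 63.0% and 61.3 to 62.6% overlapped. Networks of 2 regions or fewer held 13.6% of short loops (95% interval 12.04 to 15.3%) and 8.63% of longer ones.

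Among themselves, short loops were mostly single. Linked only through other short loops, they formed 1365 groups, of which 1121 were 1 loop on its own and 212 were pairs. Only 8 groups held 4 or more. The largest lay on chromosome 6 from 124848001 to 125042500, with 6 short loops of 28 to 45 kb. In order along the chromosome, its first 4 loops spanned 28, 34, 44 and 30 kb, each starting in the region where the one before it ended, and the last step was spanned by loops of 45 and 38 kb that overlap at both anchors. Longer loops of 128 and 182 kb began at the first anchor of this row and ended at its later anchors. The other group of 6 lay on chromosome 7 from 20247501 to 20434000, inside 4 nested domains, and it held loops of 32 to 45 kb. Its smallest enclosing domain, 230 kb long from 20215001 to 20445000, was the smallest domain around 8 loops, of which 6 were short, the highest count, which 3 domains shared. On chromosome 19, 5 short loops of 20 to 45 kb joined 4 anchor regions in a row from 6222001 to 6338000. No longer loop lay over the whole row. The loops of 45 and 36 kb overlap at both anchors, as do those of 26 and 20 kb.

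**Figure D4:**
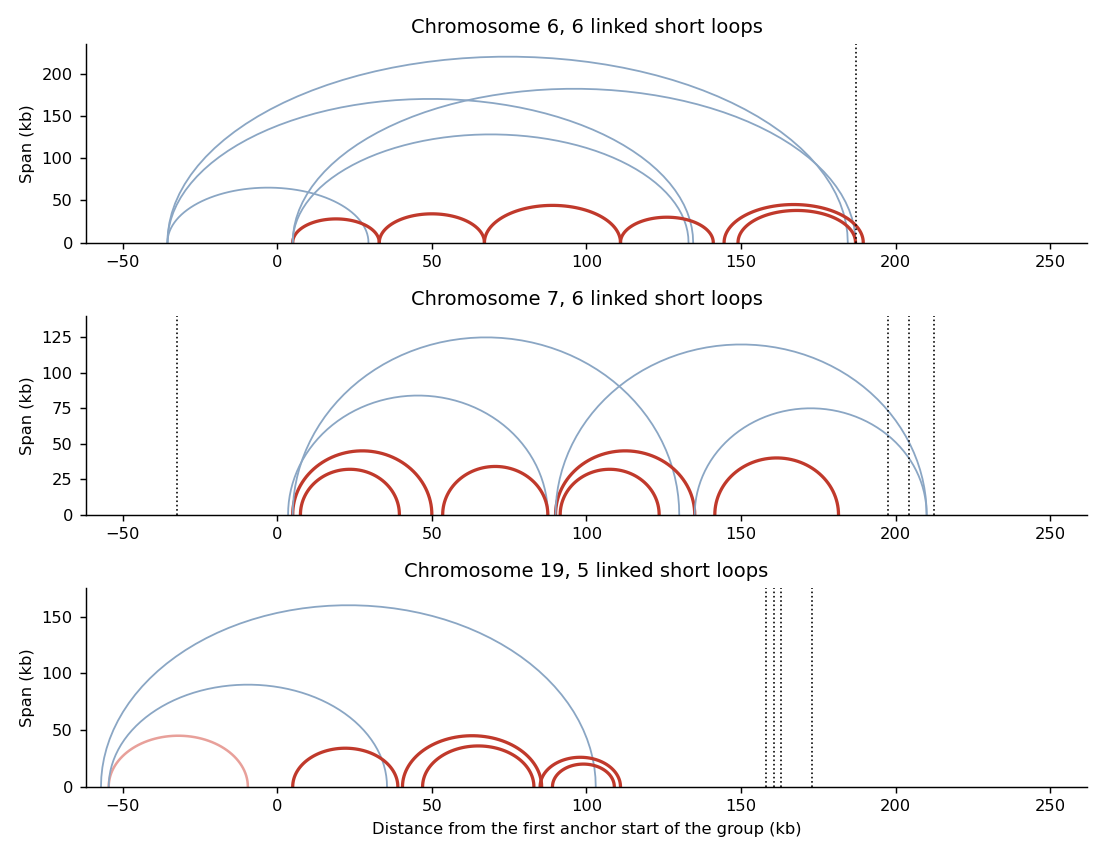
The 3 largest groups of short loops linked through shared anchors (dark red arcs), with other short loops (light red), longer loops (blue) and domain ends (dotted lines). The horizontal axis is the distance in kb from the first anchor start and the height of an arc is its span in kb. In each group some short loops run end to start. On chromosomes 6 and 19 others overlap at both anchors, and on chromosome 7 others share only a start.

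The anchor region with the most short loops was on chromosome 11, from 82822001 to 82852000. It had 4 short loops of 20 to 48 kb, of which 3 ran to lower coordinates and 1 lay within the region itself, and 6 loops of any span. A region on chromosome 19 from 6300001 to 6316000 also had 4 short loops, of which 2 ran each way, and no longer loop. Next in order, with 3 short loops each, were chromosome 1 positions 90024001 to 90046000, chromosome 2 positions 29710001 to 29730000 and chromosome 3 positions 88282001 to 88298000. All 3 short loops ran to lower coordinates from the chromosome 1 region, which lay 10 kb from a domain end, and to higher coordinates from the chromosome 3 region. Such regions were rare, since 2529 of the merged anchor regions of short loops (87.2%) had 1 short loop and 340 had 2.

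The shortest loops, the 133 with a span of 18 kb, were found on 19 of 19 autosomes, with 22 on chromosome 7 and 12 on chromosome 11. Of these, 131 lay inside a domain and 118 under a longer loop. The 18 kb loop with the most partners, 12 loops, joined positions 81210001 to 81220000 and 81228001 to 81238000 on chromosome 12, inside a domain of 265 kb. Next came a loop with 10 partners that joined positions 36252001 to 36262000 and 36270001 to 36280000 on chromosome 17, with 12 longer loops over it. On chromosome 1, the 18 kb loop from 75438001 to 75448000 and 75456001 to 75466000 had 9 partners.

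Short loops were unevenly spread over chromosomes. Counts per autosome averaged 87.1 ± 37.8 (SD over 19 autosomes). Chromosome 11 had the highest density, with 171 short loops and 1.44 per Mb, followed by chromosome 7 with 165 (1.10 per Mb), chromosome 19 with 64 (1.10 per Mb) and chromosome 17 with 95 (1.03 per Mb). Chromosome 13 had the lowest, with 46 short loops and 0.393 per Mb, then chromosome 18 with 35 (0.400 per Mb). The highest density was 3.67 times the lowest (95% interval 2.63 to 5.19, for these chromosomes as chosen for their extremes). For longer loops the highest, on chromosome 11, was 2.10 times the lowest, on chromosome 14. Between chromosomes 11 and 13 the ratio for longer loops was 1.65. The 4 densest chromosomes held 29.9% of short loops and 22.7% of longer loops on 17.4% of the length.

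Chromosomes rich in longer loops were also rich in short ones. Over the 19 autosomes the densities of short and longer loops had a Pearson correlation of 0.898 and a Spearman correlation of 0.846, given as a description, since both are counts of the same list. Without the 2 chromosomes farthest from the median density of longer loops, Pearson's value was 0.787. The short share of a chromosome's loops averaged 7.87% ± 1.58 (SD over 19 autosomes), from 5.19% on chromosome 13 (95% interval 3.91 to 6.86%) to 10.9% on chromosome 11 (9.42 to 12.5%). The interval lay above the overall 8.05% on chromosomes 7, 11 and 17, where the shares were 10.8, 10.9 and 9.82%, and below it on chromosomes 9, 13 and 18, at 6.29, 5.19 and 5.66%. Chromosome 14 had the fewest longer loops per Mb, at 5.62, yet its short share of 7.72% (5.996 to 9.90%) included the overall value. The median span of the short loops was 33 to 40 kb on every autosome.

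**Figure D5:**
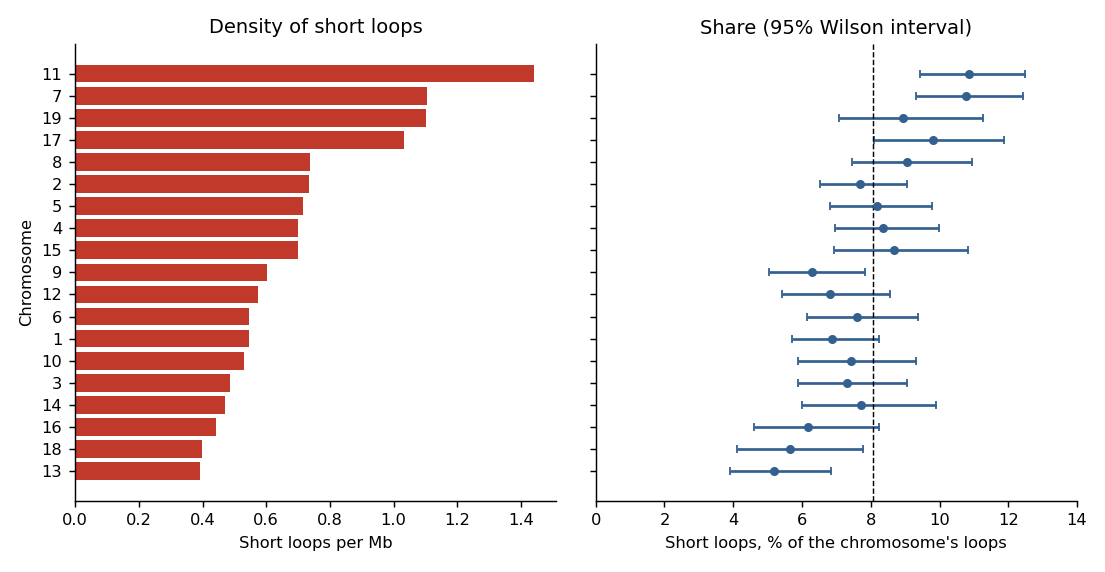
Short loops per Mb (left, bars) and as a percent of all loops of the chromosome (right, points with 95% Wilson intervals) for 19 autosomes ordered by density, with the overall share of 8.05% dashed. Chromosomes 11, 7, 19 and 17 stand above 1 short loop per Mb, and chromosome 13 is lowest at 0.393.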

How the data were processed

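The 2 deposited lists, of loops and of domains, were made by the authors once for the series and hold coordinates in bp, with no score or count. Build mm9 is named per the submitters' processing notes; aligner, callers, resolutions and filters are not given in the sources used here. Of the unmapped columns with per-sample values there were 0. The gene table at hand is of GRCm38, and 8 autosomes of the lists extend beyond its final genes, so it was not used.

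Starts were read as counted from 0. Span was the distance between anchor midpoints, and X was left out. The 10 kb grid held loops with both anchor starts at multiples of 10 kb, the 5 kb grid those with a start 2500 or 7500 bp past one, and the 2 kb grid the rest. A domain end was any distinct start or end of the 12571 autosomal domains. Chromosome length was the extent of both lists. Backgrounds are exact shares over all grid positions, with no random draw. Measures agreed exactly with direct computation on simulated lists. Python 3.11.15, numpy 2.4.6, pandas 2.3.3, scipy 1.17.1 and matplotlib 3.10.9 were used.

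Regions named were the shortest loops, the 5 anchor regions and 3 linked groups with the most short loops, the extreme autosomes and the fullest smallest domain; ties were ordered by position. Members, measures and this rule were chosen with earlier results of these data known. The measures of loops in a row, loops under longer loops and sides of domain ends, and the 18 kb loops with the most partners, were chosen after the values were seen.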

Additional observations from a re-analysis of the deposited data

Results flagged for a closer look

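X entered no comparison, and it holds short loops above the limit of 3 that a count of 0 allows. There were 24 among its 391 loops, a share of 6.14% (95% Wilson interval 4.16 to 8.97%), inside the autosomal range that starts at 5.19%. Their density was 0.147 per Mb, below the lowest autosome at 0.393 per Mb. With a single X, the difference was not tested.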

How the results depend on the processing

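Of 31 alternatives planned for the 5 main results, 17 kept the value inside its interval (counts within 1.5 times), 13 moved it and 1 reversed it. A limit of 40 kb gave 49.3 short loops per autosome in place of 87.1. For loops inside 1 domain, the difference of 11.7 points became 32.6 points with domains that hold no other, 12.8 points with whole anchors, 0.374 points against loops of 50 to under 100 kb and 0.659 points on the 2 kb grid. For anchors near domain ends, the difference of -7.79 points became -5.42 points at 10 kb, -5.00 points with domains inside no other, -1.96 points on the 2 kb grid, and reversed to 1.03 points against loops of 50 to under 100 kb. For shared anchors, the difference of -4.49 points became -25.2 points with identical anchors, -2.30 points with anchors within 10 kb, -7.87 points on the 2 kb grid and -6.68 points with a limit of 40 kb. The ratio of chromosome densities, 3.67, was 2.09 as a share of each chromosome's loops. Among 14 alternatives added after seeing the data, left anchors near a domain end reversed, from -4.66 points to 3.76 points against loops of 50 to under 100 kb and 2.36 points on the 2 kb grid, as did loops under a longer loop, from 15.6 to -0.884 points against loops of 50 to under 100 kb. The cause was not tested for any of these. No paired analysis was possible because neither list gives values for single samples. The unknown depth limits what an absent loop means.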

Other observations

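Short loops were also counted in windows of 1 Mb, with a mean of 0.679 per window and a variance 2.99 times the mean. Of 2436 windows of 1 Mb, 1686 (69.2%) held no short loop, and 24.1% held no longer loop. The 243 windows with the most short loops held 62.2% of them, and the 243 windows with the most longer loops held 32.6% of those. The fullest window was 114000001 to 115000000 on chromosome 12, with 12 short and 32 longer loops. Next, with 11 short loops each, came chromosome 10 at 80000001 to 81000000, chromosome 15 at 98000001 to 99000000 and chromosome 17 at 36000001 to 37000000. Chromosome 13, the autosome with the lowest density, had a window with 10 short loops at 67000001 to 68000000. The counts of short and longer loops in a window had a Pearson correlation of 0.619, a description over windows of the same list. A low mean spreads any count over fewer windows, so the concentration of the classes is given side by side and not compared.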
